A study of Selenicereus undatus with 4 samples.

Results

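Unigene0047826 and Unigene0047825 are the 2 assembled transcripts (unigenes) annotated as mitochondrial uncoupling protein 5, among 11051 genes listed for the comparison of the NL and L2 stages of pitaya. They were chosen by their measured values, since both stood among the most abundant listed transcripts of the NL stem, and both carried that annotation. Their levels and their difference between the stages are therefore a description, and no test is given for them.

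The samples came from the thorn seat of the stem of year-old 'Jindu No.1' pitaya, a cactus with red flesh. NL plants received no supplementary light and did not flower. L2 plants received light at night and were sampled 1 week after the bud stage. Each stage had 3 libraries, each described in the methods as a mix of several plants. NL and L2 thus differed both in light and in the presence of a growing bud, and these cannot be told apart. L0 and L1, the other stages of the series, were not analysed here. The listed genes are those that the authors had called as differentially expressed genes (DEGs), so a gene outside the list is not known to be unchanged.

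Uncoupling proteins belong to the mitochondrial carrier family, which moves small molecules across the inner mitochondrial membrane. In animals, the founding member lets protons leak back into the matrix, so that respiration yields heat in place of ATP. In Arabidopsis, uncoupling proteins 4 and 5 are also named dicarboxylate carriers, because they exchange malate, oxaloacetate and other dicarboxylates when placed in artificial membranes. Malate has a second role in cacti, which fix carbon dioxide at night and store it in the vacuole as malic acid (crassulacean acid metabolism).

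Abundance was measured in RPKM, reads scaled to the length of the unigene and to the total reads of its library. Library totals ranged from 3860701 to 5269237 reads in NL and from 5803177 to 7533457 reads in L2. Fewer cells that express a gene and less of its RNA per cell cannot be told apart in such bulk samples.

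Unigene0047826 was the more abundant of the pair in NL and stood further below that level in L2. Its RPKM was 7873, 7849 and 9199 in the NL libraries and 737, 975 and 824 in the L2 libraries. Every NL library thus stood above every L2 library, with no overlap. Since the listed genes were called on these same libraries, a lack of overlap is not particular to the pair. The mean went from 8307 ± 773 (SD, n = 3) to 845 ± 120 (SD, n = 3), that is 9.83-fold lower in L2 (log2 ratio -3.30). Of all listed genes, this was the largest difference in mean RPKM from NL down to L2, at 7462 RPKM. That place follows largely from the high NL level by which the unigene was chosen. Unigene0047825 was at place 10 by the same measure.

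Unigene0047825 was also lower in L2, by a smaller factor. Its RPKM was 3148, 3308 and 3229 in NL and 1412, 1631 and 1347 in L2. The stages again did not overlap, and the NL libraries lay close together, with a coefficient of variation of 2.48% against 10.2% in L2. The mean went from 3228 ± 79.9 (SD, n = 3) to 1463 ± 149 (SD, n = 3), that is 2.21-fold lower in L2 (log2 ratio -1.14).

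**Figure D1:**
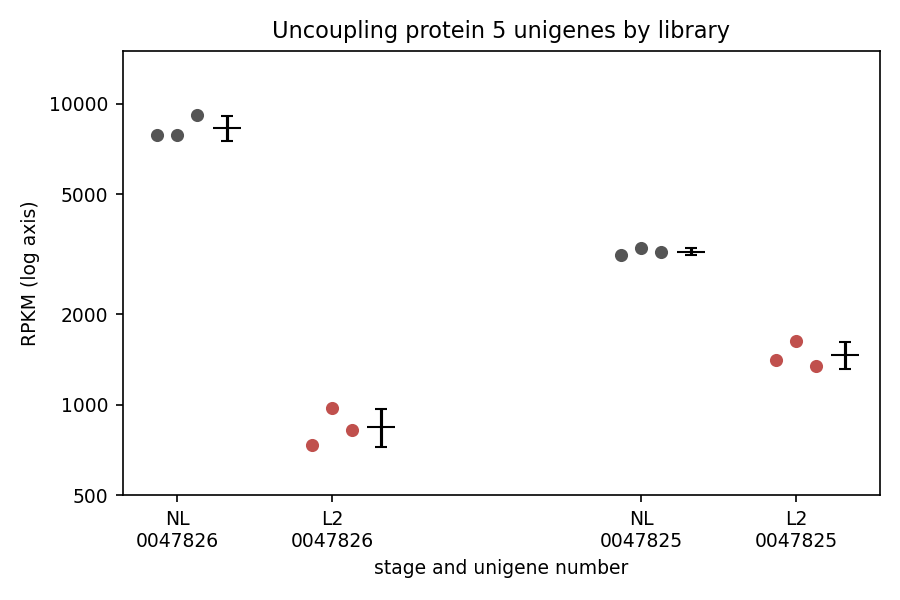
RPKM (log axis) of Unigene0047826 (left pair) and Unigene0047825 (right pair) in the 3 NL (grey) and 3 L2 (red) libraries, with the mean and SD as black bars. The NL points of Unigene0047826 lie between 7849 and 9199 and its L2 points between 737 and 975, while Unigene0047825 runs from 3148 to 3308 in NL and from 1347 to 1631 in L2.

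The number of reads behind these values was large. Unigene0047826 is 1456 nt long and took 51950, 44118 and 70572 reads in NL and 8079, 8234 and 6970 reads in L2. Unigene0047825 is 395 nt long and took 5635, 5044 and 6720 reads in NL and 4202, 3739 and 3090 reads in L2. Counting error was therefore at most 1.80% of any value, below the spread between libraries of the same stage in each case.

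As a share of all reads of a library, Unigene0047826 made up 1.15%, 1.14% and 1.34% in NL. The widest 95% exact (Clopper-Pearson) interval of these ran from 1.13% to 1.15%, which covers counting error only. In L2 its share was 0.107%, 0.142% and 0.120%. Together both unigenes took 1.27%, 1.27% and 1.47% of the NL libraries and 0.163%, 0.206% and 0.173% of the L2 libraries.

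The order of the pair turned between the stages. Within each library, the RPKM of Unigene0047826 was 2.50, 2.37 and 2.85 times that of Unigene0047825 in NL. In L2 it was 0.522, 0.597 and 0.612 times that of Unigene0047825. The log2 ratio averaged 1.36 ± 0.14 (SD, n = 3) for NL and -0.80 ± 0.12 (SD, n = 3) for L2. Such a ratio within a library does not depend on how libraries are scaled, so this turn is the same under every scaling. Unigene0047826 made up 71.9% ± 1.88 (SD, n = 3) of the summed RPKM of the pair in NL and 36.5% ± 1.98 (SD, n = 3) in L2. Counted in reads, which are not per length, the longer Unigene0047826 took more than Unigene0047825 in all 6 libraries, by 8.75 to 10.5 times in NL and 1.92 to 2.26 times in L2.

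**Figure D2:**
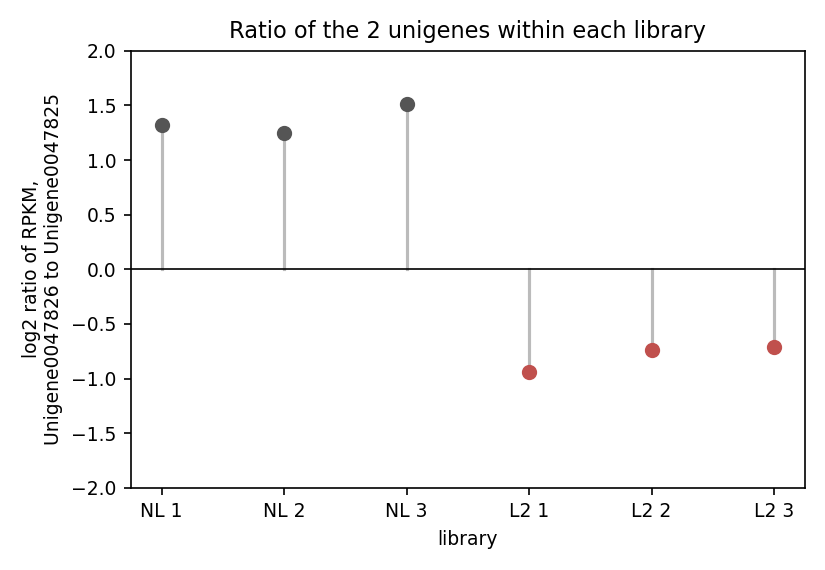
Log2 ratio of the RPKM of Unigene0047826 to that of Unigene0047825 within each of the 6 libraries, with a line at 0 where both are equal. The 3 NL libraries (grey) lie above 0, at 1.25 to 1.51, and the 3 L2 libraries (red) below it, at -0.94 to -0.71.

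The identifiers of the pair are consecutive numbers of the assembly. The table gives them different symbols, PUMP4 for Unigene0047826 and PUMP5 for Unigene0047825, and describes the latter as uncoupling protein 5-like. It does not say whether they are 2 genes, variants of 1 gene or pieces of 1 transcript, and reads that match both may have been divided between them. Their summed RPKM was 11021, 11156 and 12427 in NL and 2149, 2606 and 2171 in L2, at a log2 ratio of L2 to NL of -2.32. Among the listed genes, 218 pairs of annotated unigenes had consecutive numbers and the same annotation. In 19 of these pairs, 8.72%, the order of the levels turned between NL and L2 in all libraries, and the uncoupling protein 5 pair is among the 19.

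Among all listed genes ranked by mean RPKM in NL, Unigene0047826 was at place 2 and Unigene0047825 at place 4. In L2 they were at places 13 and 6. Ranked by reads in NL, Unigene0047826 was again at place 2, while the short Unigene0047825 was at place 34. Just above Unigene0047826 in NL stood Unigene0037309, a late embryogenesis abundant protein of a family linked to desiccation, at 8345 ± 679 RPKM. The difference between them was smaller than the spread between libraries, and their order differed among the NL libraries. Between the pair stood Unigene0009965, a polyubiquitin, which encodes the tag for protein breakdown, at 3522 ± 31.1. Just below Unigene0047825 stood Unigene0026165, an uncharacterized protein, at 3078 ± 213.

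Of the 10 most abundant listed unigenes of NL, 9 were lower and 1 was higher in L2. The log2 ratios of the 9 ran from -4.28 to -1.14, with a median of -3.02, so Unigene0047826 lay below that median and Unigene0047825 had the ratio nearest to 0 of all 9. The lowest ratio was that of Unigene0039845, a chloroplast fructose-bisphosphate aldolase of the Calvin cycle, from 2520 ± 242 to 130 ± 36.6 RPKM. Unigene0047243, the small subunit of Rubisco, which fixes carbon dioxide, went from 2756 ± 340 to 254 ± 88.3. The remaining lower genes were Unigene0034146, a tetratricopeptide-like helical protein, at 2297 ± 246 in NL and 379 ± 65.9 in L2, and Unigene0007482, an F-box/kelch-repeat protein, at 1985 ± 299 and 174 ± 60.9. The exception was Unigene0049204, a kunitz trypsin inhibitor, which blocks proteases, at 1972 ± 171 in NL and 12439 ± 3038 in L2.

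**Figure D3:**
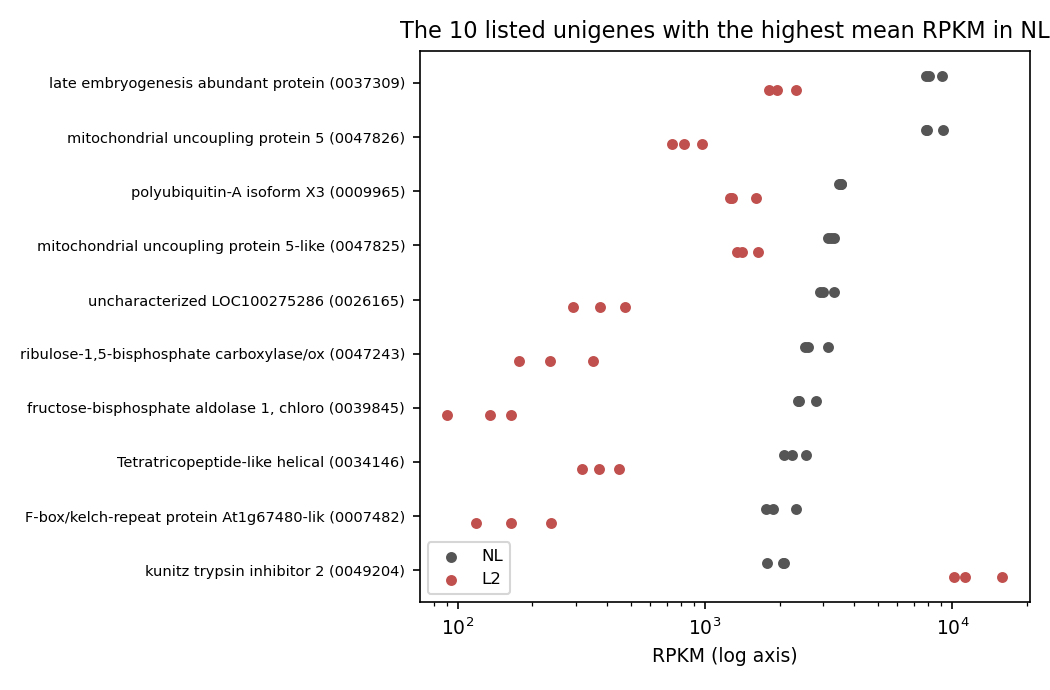
RPKM (log axis) in each NL (grey) and L2 (red) library of the 10 listed unigenes with the highest mean RPKM in NL, highest at the top, with the last 7 digits of the unigene name in brackets. The L2 points lie left of the NL points in 9 unigenes and right of them in the kunitz trypsin inhibitor at the bottom.

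Against the 4041 listed genes whose mean RPKM was lower in L2, 1199 had a lower log2 ratio than Unigene0047826, which is 29.7% of them. For Unigene0047825 the number was 3766, or 93.2%. The median log2 ratio of these 4041 genes was -2.35. The pair thus lay on either side of it.

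The genes with the profile nearest to each unigene over the 6 libraries were sought among 4991 other annotated genes whose mean reached 10 RPKM in either stage. Likeness was the root mean square difference of log2(RPKM + 0.1), each gene centred on its own mean. Nearest to Unigene0047826 was Unigene0041491, of the Mpv17/PMP22 membrane protein family, at a difference of 0.08 and with 129 ± 8.12 RPKM in NL and 12.7 ± 2.82 in L2. Then followed a ubiquitin C (Unigene0050864, 0.10), 4-hydroxy-3-methylbut-2-enyl diphosphate reductase of plastid isoprenoid synthesis (Unigene0033605, 0.11), plastid-lipid-associated protein 12 (Unigene0006553, 0.11) and the glycolytic enzyme enolase (Unigene0048112, 0.12).

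Nearest to Unigene0047825 was Unigene0048818, an E4 SUMO-protein ligase, at 0.07, with 13.5 ± 0.974 RPKM in NL and 6.40 ± 0.693 in L2. The next were ATP synthase protein I (Unigene0041457), a DUF3511 domain protein (Unigene0006618), protein ABCI12 of chloroplasts (Unigene0035649) and a vesicle-associated protein (Unigene0043451), each at 0.08. The members of the pair were not among each other's nearest genes, at a difference of 1.08. Of 4991 candidates, this is place 1510 from Unigene0047826 and place 1531 from Unigene0047825.

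For the other genes, the stages were compared with limma on log2(RPKM + 0.1), with Benjamini-Hochberg adjusted p over all 11051 listed genes and a threshold of 0.05. Of the listed genes 63.0% passed as higher in L2 and 36.3% as lower. Since the authors had called every one of them on the same libraries, these shares are the background for the counts that follow, and the calls are not independent evidence. Other scalings of the libraries, made for tables in which most genes do not change, lowered every log2 ratio of L2 to NL by 0.85 (TMM) or 1.08 (DESeq2). With TMM in edgeR 4268 genes were then higher and 4041 lower, and with DESeq2 2779 and 4021. Both scalings widen the difference of the uncoupling protein 5 unigenes.

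The other listed genes of the mitochondrial carrier family moved in both directions. Of 27 such carriers, 17 were higher in L2, 8 were lower and 2 did not pass, and the median log2 change was 1.37, against 1.43 over all listed genes. The shares, 63.0% and 29.6%, are near the background and say nothing particular to the family. With TMM 8 of the carriers were higher and 9 lower, and with DESeq2 6 and 9. No other listed carrier came near the pair in level: the highest reached 74.3 RPKM in any NL library and 80.9 in any L2 library. The pair was chosen for its level in NL, and the levels of carriers outside the list are not known. The pair made up 97.5% to 97.8% of the summed RPKM of the listed family in NL and 85.6% to 88.0% in L2. Without the pair, that sum was 265 to 282 in NL and 319 to 365 in L2.

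**Figure D4:**
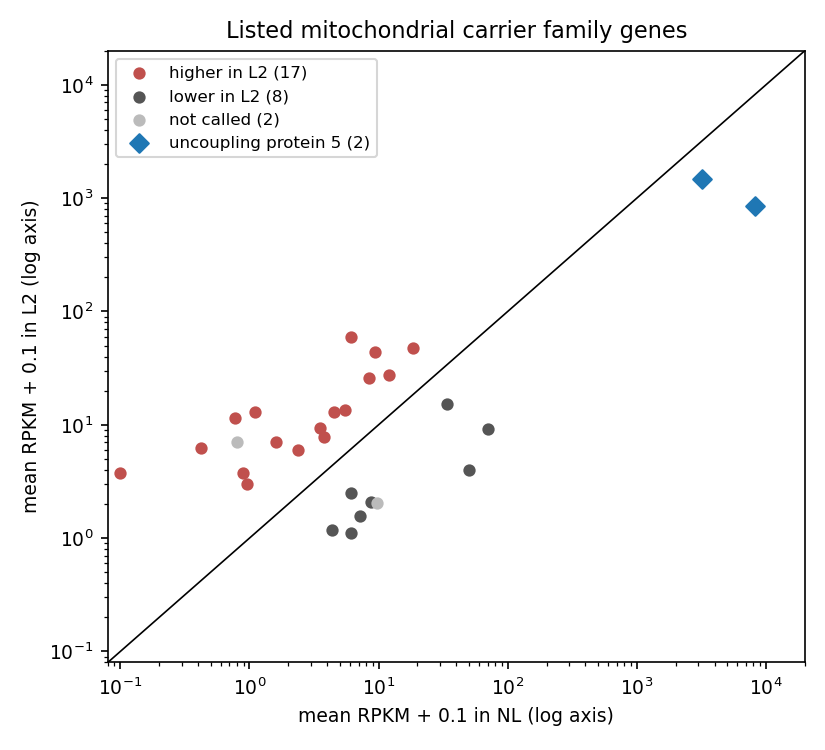
Mean RPKM + 0.1 in NL (horizontal) and L2 (vertical), both on log axes, of the listed mitochondrial carrier family genes, with the line of equal level. The uncoupling protein 5 unigenes (blue diamonds) stand apart at the upper right, below the line, while 18 of the 27 other carriers lie above it, 17 of them called as higher in L2 (red).

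The listed carriers nearest in annotation to the pair moved in both directions. Uncoupling protein 1 (Unigene0042395) measured 9.64, 6.16 and 5.58 RPKM in NL and 1.84, 1.42 and 1.12 in L2 (log2 change -2.20 ± 0.41 standard error, limma adjusted p = 0.00153). Uncoupling protein 2 (Unigene0028776) measured 1.52, 0 and 0.522 in NL and 12.9, 10.3 and 11.0 in L2 (log2 change 4.62 ± 0.94 standard error, limma adjusted p = 0.00225). So 1 rose and 1 fell, both at levels far below those of the pair.

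Of the 3 unigenes annotated as the dicarboxylate/tricarboxylate transporter DTC, which exchanges oxoglutarate, malate and citrate, 2 rose and 1 fell. Unigene0045739 fell from 46.9, 46.1 and 56.8 RPKM in NL to 2.04, 5.39 and 4.25 in L2 (log2 change -3.75, standard error 0.35). Unigene0045871 rose from 9.26 ± 4.26 to 44.1 ± 8.72 (log2 change 2.32, standard error 0.34). Unigene0007031 had no reads in NL and 28 in L2, at least 6.66-fold higher against a floor of 3 reads over the NL stage. The summed mean RPKM of the 3 was 59.2 in NL and 51.6 in L2.

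The most abundant of the other carriers that rose was the arginine transporter BAC2 (Unigene0046320), which admits basic amino acids to mitochondria, from 6.07 ± 2.89 to 60.0 ± 19.8 RPKM. The peroxisomal NAD carrier (Unigene0035980) went from 18.3 ± 3.53 to 47.2 ± 4.92, and the carnitine/acylcarnitine carrier-like protein (Unigene0037740) from 11.9 ± 1.15 to 27.2 ± 6.90. These last genes passed in limma and lost the call under TMM (adjusted p = 0.0675 and 0.260 in edgeR) and DESeq2 (0.327 and 0.785). Among those that fell were the adenine nucleotide transporter ADNT1 (Unigene0005001), from 70.1 ± 3.69 to 9.04 ± 2.49, a chloroplast NAD transporter (Unigene0045055), from 33.9 ± 4.78 to 15.3 ± 3.28, and the ADP,ATP carrier ER-ANT1 of the endoplasmic reticulum (Unigene0030541), from 8.61 ± 3.15 to 1.99 ± 1.70. The adjusted p of the named carriers was at most 0.0072 in limma.

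Alternative respiration, which passes electrons to oxygen without pumping protons at every step, held genes that moved in both directions. Of 11 listed genes 4 rose and 7 fell, 36.4% and 63.6%, against 63.0% and 36.3% of all listed genes. The median log2 change was -2.56. All 5 unigenes annotated as ubiquinol oxidase 4 of plastids, the plastid terminal oxidase, fell, from a summed mean RPKM of 270 to 42.9. These plastid unigenes were 5 of the 7 that fell, so the count and the median do not describe the mitochondrial genes of the list. Of those, the alternative oxidase had 2 higher and 0 lower. The alternative NAD(P)H dehydrogenases, 1 of them annotated to chloroplasts as well, had 2 higher and 2 lower. The most abundant, Unigene0037174, went from 147 ± 20.3 to 23.2 ± 6.80, followed by Unigene0054090 (102 ± 20.2 to 17.4 ± 4.22) and Unigene0037173 (6.81 ± 2.83 to 1.03 ± 0.399).

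Both unigenes of the mitochondrial alternative oxidase rose. Unigene0041329 went from 9.39, 7.27 and 10.9 RPKM in NL to 38.5, 29.2 and 22.5 in L2 and Unigene0042173 had means of 2.84 ± 0.554 and 10.5 ± 5.30. Each lost its call with DESeq2 (adjusted p = 0.0913 and 0.117) and kept it with edgeR. Of the alternative NAD(P)H dehydrogenases, which feed electrons to ubiquinone without pumping, the internal A1 form (Unigene0042337) rose from 4.65 ± 1.81 to 72.9 ± 16.7 and the external B2 form (Unigene0040745) from 1.97 ± 1.40 to 27.3 ± 3.30. The C1 form (Unigene0036377), annotated to chloroplasts and mitochondria, fell from 15.3 ± 1.09 to 5.24 ± 0.579, as did a second internal A1 unigene, Unigene0047306, which was singled out after its values were seen, from 6.45, 4.18 and 5.69 to 0.408, 1.33 and 0.53.

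Of 24 listed genes of the proton-pumping respiratory chain, its assembly and the mitochondrial ATP synthase, 12 rose and 12 fell. These are 50% each, against 63.0% and 36.3% of all listed genes, with a median log2 change of -0.01. Among those that rose, 3 had no reads in NL. With TMM 6 rose and with DESeq2 5, while 12 fell with each. The number of all listed genes that rose also dropped under these scalings, to 4268 and 2779. The most abundant genes named here fell, and the summed RPKM of the list was 867 to 1120 in NL and 487 to 519 in L2. NADH dehydrogenase flavoprotein 2 of complex I (Unigene0043153) fell from 252 ± 55.5 to 23.2 ± 8.65 RPKM, the largest change of the genes named here. Cytochrome c oxidase subunit 5C (Unigene0017534) fell from 225 ± 33.6 to 100 ± 8.33, and subunits 8 (Unigene0015651) and 7-2 (Unigene0023653) of the cytochrome b-c1 complex fell from 204 ± 21.0 to 86.6 ± 8.44 and from 109 ± 14.7 to 45.1 ± 1.81. A ubiquinol-cytochrome c reductase subunit (Unigene0026463) rose from 7.37 ± 3.35 to 44.1 ± 9.86, and a succinate dehydrogenase assembly factor (Unigene0025261) from 5.66 ± 0.356 to 29.8 ± 3.43. A cytochrome c oxidase biogenesis protein (Unigene0026004) rose from 7.59 ± 2.85 to 26.6 ± 3.96 and lost its call with DESeq2 (adjusted p = 0.120). ATP synthase subunit G (Unigene0021792) rose from 11.3 ± 2.91 to 23.8 ± 5.63 in limma, but lost its call with TMM (edgeR adjusted p = 0.583) and had a log2 change of -0.03 with DESeq2 (adjusted p = 0.954).

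The list of malate and dicarboxylate metabolism was mostly lower in L2, as was the list of green tissue genes described below. Most of the enzymes in the malate list make or use dicarboxylates that Arabidopsis uncoupling protein 5 exchanges. Pyruvate, orthophosphate dikinase and its regulatory protein, also in the list, do not. Of 44 listed genes 34 fell and 10 rose, 77.3% and 22.7%, against 36.3% and 63.0% of all listed genes. The median log2 change was -1.88. These counts are of unigenes, and some have consecutive numbers and the same annotation, such as Unigene0045032 and Unigene0045033 (phosphoenolpyruvate carboxylase). Some are also short, such as Unigene0051523 at 206 nt. Whether such unigenes are separate genes or pieces of the same transcript was not tested, so the number of separate genes that fell is not known. The summed RPKM of the list was 5063 to 5779 in NL and 1102 to 1233 in L2. Pyruvate, orthophosphate dikinase (Unigene0053123), which regenerates phosphoenolpyruvate, was its most abundant gene in NL, at 1515, 1693 and 1777 RPKM against 118, 200 and 140 in L2 (log2 change -3.47 ± 0.25 standard error, limma adjusted p = 4.6e-05).

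Phosphoenolpyruvate carboxylase, which makes the oxaloacetate that becomes malate at night, had 12 listed unigenes, of which 10 fell and 2 rose. The most abundant, Unigene0000677, fell from 677 ± 80.3 to 13.5 ± 2.51 RPKM, while Unigene0003031 rose from 50.5 ± 6.97 to 112 ± 21.1 in limma and lost its call with TMM (edgeR adjusted p = 0.232) and DESeq2 (0.830). All 7 unigenes of NADP-dependent malic enzyme, which releases carbon dioxide from malate, fell, and the largest of them, Unigene0050123, went from 484 ± 40.3 to 179 ± 16.1. Cytoplasmic malate dehydrogenase (Unigene0038170) fell from 610 ± 66.7 to 147 ± 16.7.

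Of 7 listed genes for vacuolar, chloroplast and aluminum-activated transporters of malate and dicarboxylates, 5 rose and 2 fell, against the 63.0% and 36.3% of all listed genes. The tonoplast dicarboxylate transporter (Unigene0036709), which moves malate into the vacuole, rose from 12.2 ± 5.09 to 78.0 ± 11.0 RPKM, and chloroplast dicarboxylate transporter 1 (Unigene0038609) from 7.68 ± 2.18 to 27.1 ± 4.07. The genes that fell, named here after their values were seen, were aluminum-activated malate transporter 4 (Unigene0009776), the most abundant of the 7 in NL, from 49.0 ± 6.95 to 11.8 ± 1.37, and aluminum-activated malate transporter 2-like (Unigene0004822), from 2.71 ± 1.93 to 0.617 ± 0.358. A second unigene of aluminum-activated malate transporter 4, Unigene0009775, rose from 2.10 ± 1.71 to 7.12 ± 3.16, with libraries that overlapped. It was also singled out after its values were seen. Of 5 unigenes of the mitochondrial NAD-dependent malic enzyme 4 fell and 1 rose, and their summed mean RPKM was 249.5 in NL and 90.7 in L2. The exception, Unigene0008453, rose from 2.89 ± 2.11 to 20.4 ± 4.02, while Unigene0010025, which has the same annotation and was singled out after its values were seen, fell from 137 ± 14.9 to 25.5 ± 2.55.

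**Figure D5:**
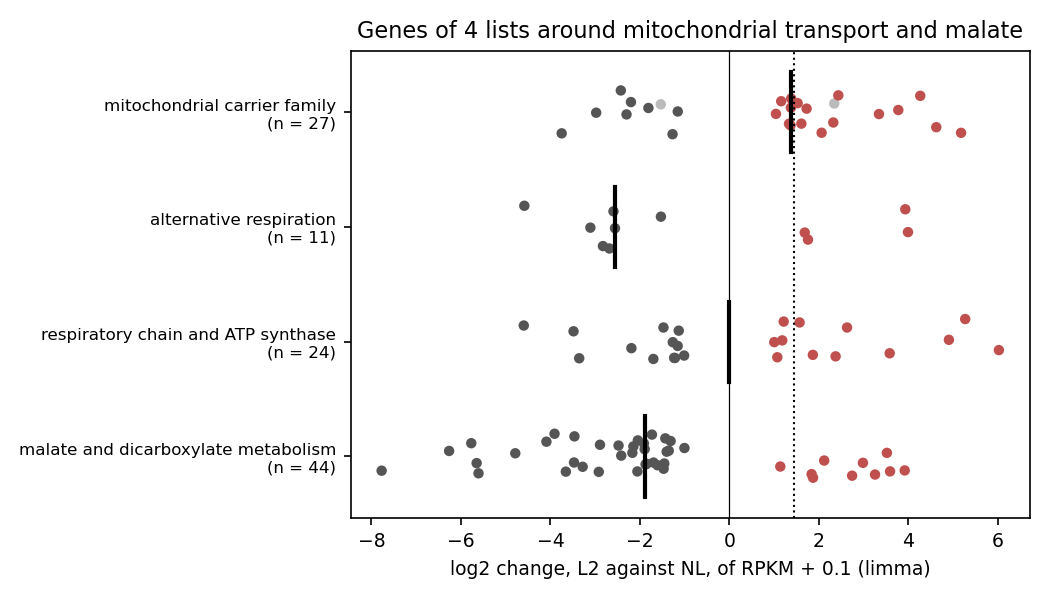
Log2 change from NL to L2 of RPKM + 0.1 (limma) for each gene of the 4 lists, without the uncoupling protein 5 pair, with genes higher in L2 in red, lower in grey and not called in light grey. The black bars are the list medians of 1.37, -2.56, -0.01 and -1.88 from top to bottom, and the dotted line is the median of all listed genes, 1.43.

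Lists of genes for green tissue, floral organs, dividing cells and desiccation were compared between the same stages. The background over all listed genes was 63.0% higher and 36.3% lower in L2. Of 22 listed green tissue genes, found by the words chlorophyll a-b binding protein and ribulose bisphosphate carboxylase small chain, 19 were lower in L2 and none was higher, and their summed RPKM was 3775 to 4669 in NL and 648 to 1544 in L2. Those words leave out Unigene0047243, the abundant Rubisco small subunit unigene described above. Of 11 genes found by floral organ words such as AGAMOUS, 10 were higher, with sums of 18.7 to 32.0 and 180 to 273. Those words also match genes named only as agamous-like. The 1 lower gene was such a match, Unigene0027094, annotated as AGL19 with the symbol SOC1. From the same list, Unigene0003257 (AGL11) and Unigene0047380 (SEPALLATA 1) had no reads in NL. Of 22 cyclin and histone genes of dividing cells 21 were higher, with sums of 303 to 400 and 811 to 1390. Late embryogenesis abundant genes had 6 higher and 5 lower, 54.5% and 45.5%, and Unigene0037309 made up most of their RPKM. The part of such shifts in the lower level of the uncoupling protein 5 unigenes was not tested.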

How the data were processed

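RNA from the NL and L2 stages was sequenced by the authors, assembled de novo with Trinity and mapped to the unigenes with Bowtie2 (version not given in the sources used here). The counting tool is not given in the sources used here. The authors deposited an RPKM value for each of the 6 libraries and, for each stage, the mean of 3 whole read counts. The deposited mean is handled in the form of an expected count only because it need not be whole. The deposited table also holds the authors' own comparison (mean RPKM, log2 ratio, p-value, FDR and call), and none of those columns was used. It lists called genes only, with an absolute log2 ratio of mean RPKM of at least 1.00.

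Together, the RPKM values and mean counts gave back the reads per library, unigene lengths and library totals. All 59302 values above 0 came out whole within 0.05 reads. The steps used limma 3.58.1 (trend, two-sided, pseudocount 0.1), and as alternatives edgeR 4.0.16 and DESeq2 1.42.0 on the recovered reads, in R 4.3.3, with Python 3.11.15. DESeq2 and edgeR used counts recovered from the deposited RPKM. On simulated reads in which 200 of 11051 genes differed 3-fold, limma called 81.5% of those and 7 others, a setting unlike a table of called genes. Other alternatives were pseudocounts of 1 and 0.01, a restriction to genes that reached 1 RPKM in 3 or more libraries, upper quartile scaling, a block for the replicate number, and omission of each library in turn.

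The pair was described without a test. Lists were taken by words in the annotations. From each list the 4 higher and 4 lower genes with the highest mean RPKM were named, among genes past an adjusted p of 0.05 with libraries that did not overlap and means that reached 1 RPKM in NL and L2. Carriers annotated as uncoupling protein or dicarboxylate carrier were added, with the 10 most abundant genes of NL and the 5 nearest profiles for each member. The members and lists were chosen with earlier results of these data known. The labels give 1 sample per stage, so library columns were matched to stages by their names, and p-values measure the spread between these libraries.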

Additional observations from a re-analysis of the deposited data

How the results depend on the processing

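Scaling set the size of the fall. Relative to library totals, the log2 ratio of Unigene0047826 was -4.15 with TMM, -4.37 with DESeq2 size factors and -3.79 with the upper quartile. That of Unigene0047825 was -1.99, -2.21 and -1.63 under the same scalings, and that of their sum -3.17, -3.39 and -2.81. Without 1 library the values ran from -3.41 to -3.21, from -1.23 to -1.09 and from -2.42 to -2.26. The log2 ratio of Unigene0047826 to Unigene0047825 was 3.24 in NL and 1.09 in L2 when reads replaced RPKM, and the second has the opposite sign to -0.80. Reads are not per length, which gives the shift. Without 1 library the ratio ran from 1.28 to 1.42 in NL and from -0.84 to -0.73 in L2.

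With TMM and DESeq2 the genes higher in L2 numbered 4268 and 2779 among all listed, 8 and 6 among the carriers and 6 and 5 in the respiratory chain, and with DESeq2 2 in alternative respiration. Without 1 library, 6335 to 6729 listed genes were higher and 3742 to 3848 lower. For the carriers the counts were 15 to 18 and 6 to 8, for alternative respiration 4 and 7 in every case, for the respiratory chain 10 to 12 and 9 to 11, and for malate metabolism 9 to 10 and 33 to 34. Libraries with the same number deviated together only weakly (r of 0.04, 0.02 and 0.06). Libraries with different numbers had lower r, from -0.05 to 0.01. Deviations were taken from the mean of each stage, so a positive r for the same number forces lower r for the others. That contrast is not separate evidence, and whether the numbers pair the libraries is not settled. The replicate block gave 6902 higher and 3992 lower genes.

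The limits are those of the table. It holds called genes only, of 2 stages, and no sequences, so the relation of the pair could not be examined.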

Other observations

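Unigenes annotated as subunits of cytochrome c oxidase and of mitochondrial origin, or with the name of such a subunit, moved in both directions. They were singled out after their values were seen. Unigene0025678 (subunit 1) had no reads in NL and 1.98, 18.6 and 6.92 RPKM in L2. Unigene0005747 (subunit 3) had no reads in NL and 0.422, 15.1 and 3.28 RPKM in L2, and Unigene0067816 (subunit 2) had none in NL and 1.85, 13.2 and 2.10 in L2. Against a floor of 3 reads over the NL stage these are at least 67.6-fold, 16.4-fold and 14.0-fold higher. The second L2 library was the highest in each, and without it, a check added after the data had been seen, the bounds are 32.8-fold, 4.78-fold and 5.12-fold. Without the first L2 library the bound of Unigene0005747 is 26.3-fold.

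Other unigenes named as subunits 1 and 2 fell. Their symbols are COX1 and COX2, whereas the unigenes without NL reads carry COI, MT-CO3 and COII. Whether the unigenes without NL reads come from pitaya was not tested. Unigene0020407 (subunit 1) had 9.86, 7.19 and 5.78 RPKM in NL and 2.43, 3.97 and 3.85 in L2, with a limma log2 change of -1.13 and an adjusted p of 0.0156. Unigene0027143 (subunit 2) had 3.20, 3.57 and 3.83 in NL and 1.73, 2.08 and 1.35 in L2, with a limma log2 change of -1.01 and an adjusted p of 0.0394. The nuclear subunit 5C (Unigene0017534) had a limma log2 change of -1.16.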
